A study of Mus musculus with 22 samples.

Results

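The genes described here encode 10 proteins of the machinery that removes maternal mRNA from the mouse oocyte: the adaptor *Btg4*, the CCR4-NOT deadenylase subunits *Cnot6*, *Cnot6l*, *Cnot7* and *Cnot8*, the deadenylase *Pan2*, the decapping proteins *Dcp1a* and *Dcp2*, and the mRNA-binding proteins *Zfp36l2* and *Ythdf2*. They were chosen by name from the 52636 GENCODE M15 genes of the table, and each of the 10 symbols matched exactly 1 gene. No threshold on their values was used, but earlier results of these data were known. RNA-seq of fully-grown germinal vesicle (GV) oocytes of C57BL/6 females was done in 2 runs, which were analysed apart. The study asked how the transcriptome of oocytes changes when RNA interference (RNAi), the piRNA pathway or both are lost.

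The single-end run held wild type (*Dicer* WT/WT, n = 3), *Dicer* ΔMT/WT (n = 1), *Dicer* ΔMT/ΔMT (n = 4) and *Dicer* SOM/SOM (n = 3) oocytes, and its labels give no age. ΔMT removes the retrotransposon-derived promoter of the short, oocyte-specific Dicer isoform. SOM is an HA-tagged allele without the introns that hold this promoter and a downstream substitute, so only full-length Dicer can be made, and the mouse line goes back to 1 embryonic stem cell clone. In the paired-end run, every animal carried at least 1 *Dicer* SOM and 1 *Mili* DAH allele, the latter encoding a MILI protein whose catalytic site is mutated. It held heterozygous controls (*Mili* DAH/WT with *Dicer* SOM/WT, n = 4, aged 36, 38, 10 and 17 weeks), RNAi mutants (*Mili* DAH/WT with *Dicer* SOM/SOM, n = 2, 17 and 13 weeks), a piRNA mutant (*Mili* DAH/DAH with *Dicer* SOM/WT, n = 1, 16 weeks) and double mutants homozygous for both alleles (n = 4, 40, 35, 11 and 11 weeks). The controls of the second run were thus not wild type. Each library pooled oocytes. The study calls its replicates biological, and the ages show that most paired-end libraries of a group came from different animals. For the single-end libraries the labels name no animals, so the p-values there measure the spread between libraries, which may be partly technical.

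Growing oocytes store large amounts of stable mRNA and stop transcription before they resume meiosis, after which most of this store is destroyed. Decay usually starts with the shortening of the poly(A) tail. PAN2-PAN3 can begin it and the CCR4-NOT complex carries it on, with 1 exonuclease from the pair CNOT6 and CNOT6L and 1 from the pair CNOT7 and CNOT8. BTG4 joins CCR4-NOT to translation initiation factors and poly(A)-binding protein in the maturing oocyte, ZFP36L2 recruits CCR4-NOT to AU-rich elements, and YTHDF2 does so for transcripts with N6-methyladenosine. DCP2 then cuts off the cap with the help of its activator DCP1A, and exonucleases degrade the body of the mRNA from both ends.

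Libraries of the single-end run held 6468380 to 90713013 counts, and those of the paired-end run 22928936 to 43540806. *Dicer* SOM/SOM replicate 3 had the lowest of these totals, whereas no other library of its run was under 47741738. Its 2 rRNA-bearing genes, *Gm42418* and *Gm26917*, also summed to 18020 CPM (counts scaled to the size of the library), against 13010 and 5055 CPM in SOM/SOM replicates 1 and 2 and 5306 to 7738 CPM in the other libraries of that run. The 10 genes had between 134 and 225714 counts per library. The lowest was *Cnot6* in SOM/SOM replicate 3, where counting error was therefore largest. *Dicer1* was at 1000.4 to 1056 CPM in wild type, 428 to 536 in ΔMT/ΔMT and 41.9 to 54.8 in SOM/SOM, and at 502 to 763 in heterozygous controls, 53.8 to 62.1 in RNAi mutants, 53.1 to 60.8 in double mutants and 595 in the piRNA mutant, so each library carried the *Dicer1* level of its label. The DAH allele changes the protein, which a gene count does not check. All 10 oocyte markers (such as *Zp3*, *Gdf9* and *Nobox*) were detected in every group, with sums of 11300 to 14390 CPM per library. The 14 granulosa and cumulus markers summed to 85.4 to 155 CPM, with 11 to 13 of them above the floor of 3 counts. The 9 B cell markers summed to 83.4 to 227 CPM, with 4 (ΔMT/WT) to 8 (double mutants) of them above the floor. The light chain gene *Igkc* was at or under the floor in every group. So were *Cd79a*, *Cd79b* and *Cd74* in wild type, and *Cd79a*, *Cd79b* and *Ptprc* in heterozygous controls. In double mutants *Igkc* alone was. B cell sums were 191 to 202 CPM in wild type and 83.4 to 121 CPM in SOM/SOM. Of 5 B cell markers tested in SOM/SOM, 2 were called lower than wild type and 0 higher. Of 6 tested in double mutants, 2 were called higher than controls and 0 lower. Over all genes, 14.2% were called lower in SOM/SOM and 12.3% higher in double mutants. Whether these counts came from B cells, and their part in the results, was not tested.

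The transcripts differed widely in abundance in control oocytes, and their order was the same in both runs. Levels between genes were compared as RPKM, the CPM divided by the summed exon length in kilobases. *Dcp1a* (chromosome 14, 30479612 to 30527063, plus strand) stood first with 485 ± 40.1 RPKM (SD, n = 3) in wild type and 439 ± 58.2 RPKM (SD, n = 4) in heterozygous controls. *Btg4* (chromosome 9, 51105878 to 51119875, plus strand) came second with 393 ± 16.3 and 334 ± 8.34 RPKM. These were among the most abundant mRNAs of the oocyte, at rank 59 and rank 81 of the 23151 genes tested in the single-end run, that is, within its top 0.255% and 0.350%.

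Next came *Cnot7* (chromosome 8, 40492540 to 40515847, minus strand) with 102 ± 11.5 RPKM in wild type and 159 ± 27.2 in heterozygous controls, and *Cnot6l* (chromosome 5, 96070333 to 96161990, minus strand) with 92.2 ± 3.52 and 95.8 ± 10.0 RPKM. *Pan2* (chromosome 10, 128303335 to 128321353, plus strand) had 51.2 ± 3.18 and 46.1 ± 8.53 RPKM, *Dcp2* (chromosome 18, 44380502 to 44424969, plus strand) 34.9 ± 3.54 and 34.7 ± 1.27, and *Cnot8* (chromosome 11, 58104229 to 58118594, plus strand) 29.9 ± 2.80 and 32.1 ± 5.56. The last 3 were *Ythdf2* (chromosome 4, 132184912 to 132212303, minus strand) with 10.1 ± 2.07 and 10.9 ± 2.12 RPKM, *Cnot6* (chromosome 11, 49671503 to 49712723, minus strand) with 6.64 ± 0.220 and 6.50 ± 0.751, and *Zfp36l2* (chromosome 17, 84183931 to 84187947, minus strand) with 3.82 ± 0.583 and 2.83 ± 0.707. Samples of neighbours in this order overlapped for *Cnot7* and *Cnot6l* in wild type, for *Pan2* and *Dcp2* in heterozygous controls, and for *Dcp2* and *Cnot8* in both. All other neighbours were apart in every sample. *Zfp36l2* was at rank 9411 of 23151, within the top 40.7%. Coordinates are those of the mm10 build, and every exon of a gene, untranslated regions included, was counted.

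**Figure D1:**
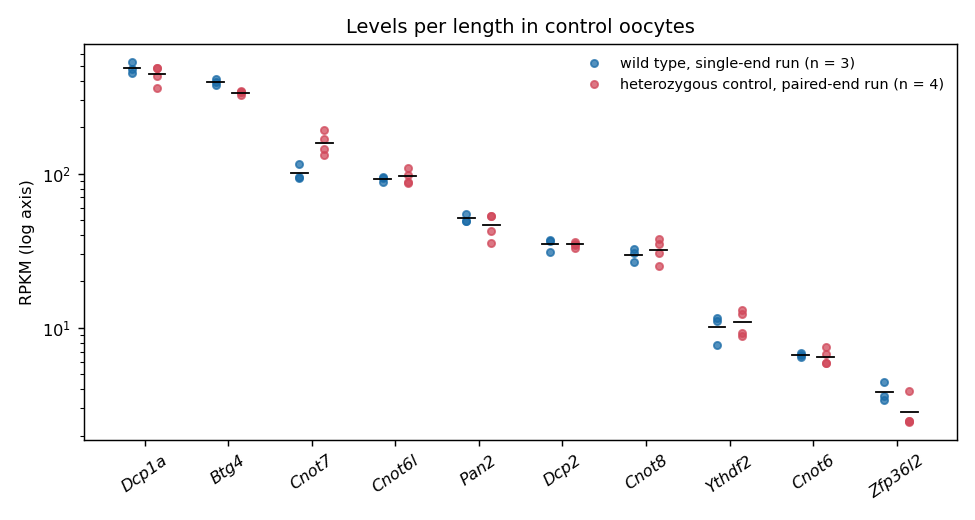
Levels of the 10 decay genes in control oocytes, as RPKM on a log axis; each point is 1 library of wild type (blue, n = 3) or heterozygous controls (red, n = 4), and each bar is a mean. *Dcp1a* and *Btg4* lie above all others in both runs, and *Cnot6* and *Zfp36l2* lie lowest, with *Zfp36l2* at 3.82 and 2.83 RPKM on average.

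Of each pair of alternative CCR4-NOT exonucleases, control oocytes held mainly the transcript of 1 member. Per length, *Cnot6l* exceeded *Cnot6* 13.6-fold to 14.4-fold in the 3 wild-type libraries and 13.2-fold to 16.6-fold in the 4 heterozygous controls. *Cnot7* exceeded *Cnot8* 3.13-fold to 3.56-fold in wild type and 4.42-fold to 5.51-fold in heterozygous controls. Since the authors' counting divided a read between all places it matched, the paralogs were compared base by base to see whether they could share reads. The coding sequences of *Cnot6* and *Cnot6l* were 73.3% identical over 1650 aligned bases and those of *Cnot7* and *Cnot8* 70.2% identical over 852. The longest identical run in either pair was 20 bases, shorter than any read of either run. The stretches around these runs are shown over the length of a single-end read, 50 bases, 5′ to 3′ along the mRNA, with the identical run in capitals.
Cnot6 (chr11:49677427-49677476, minus strand, exon 11): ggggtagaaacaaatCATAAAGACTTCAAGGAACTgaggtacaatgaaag
Cnot6l (chr5:96080060-96080109, minus strand, exon 11): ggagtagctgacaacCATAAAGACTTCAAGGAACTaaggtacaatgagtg
Cnot7 (chr8:40499416-40500777, minus strand, exons 3 and 4 without the intron): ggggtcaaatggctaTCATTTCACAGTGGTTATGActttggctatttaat
Cnot8 (chr11:58113188-58113973, plus strand, exons 4 and 5 without the intron): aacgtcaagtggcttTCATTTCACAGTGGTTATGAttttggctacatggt
Each pair differed at 10 of the 50 bases shown. A read that lies within one coding sequence thus could not match the other of the pair without mismatches. The authors' mapping allowed mismatches, so this comparison alone does not settle whether any reads were shared. A read divided between places adds a fraction to each count. Of 22 counts, 21 were whole for *Cnot6*, 4 for *Cnot6l*, and 6 each for *Cnot7* and *Cnot8*. No gene of the 10 had a copy at least 95% identical over at least 50% of its transcript. Partial copies existed for *Ythdf2*, *Gm6823* over 44.4% and *Gm8401* over 42.1% of its transcript, and for *Cnot8*, *Gm18860* over 36.2%. The counts given to *Gm6823* were 5.30% to 7.26% of those of *Ythdf2* in the single-end run and 0.565% to 1.40% in the paired-end run. For *Gm8401* these shares were 4.50% to 5.90% and 0.457% to 0.876%, and for *Gm18860* against *Cnot8* 4.05% to 5.11% and 0.486% to 0.905%. The counting also ignored strand, and 192 exonic bases of *Cnot7*, 5.0% of its exon length, lie opposite *Zdhhc2*.

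In the single-end run, *Cnot6* was called lower and *Ythdf2* higher than wild type in both homozygous *Dicer* mutants. *Cnot6l* was called lower in SOM/SOM only, and the other transcripts were not called. Differences were tested for all 23151 genes with edgeR's quasi-likelihood test and called at a Benjamini-Hochberg adjusted p under 0.05. Of the 10 genes, 1 was called higher and 1 lower in *Dicer* ΔMT/ΔMT oocytes, where 8.06% of all tested genes were called higher and 7.3% lower. In *Dicer* SOM/SOM oocytes 1 was called higher and 2 lower, where 14.5% of all genes were called higher and 14.2% lower. The shares of the 10 genes called thus lay near those of all genes. Their median log2 fold change was −0.062 in ΔMT/ΔMT and −0.21 in SOM/SOM, against 0.0079 and 0.017 over all tested genes. The shallow SOM/SOM replicate 3 was the lowest of its group in *Btg4*, *Cnot6*, *Cnot6l*, *Cnot7*, *Cnot8*, *Dcp1a* and *Dcp2*. In *Zfp36l2*, *Ythdf2* and *Pan2* it was the highest. A median without this library was not computed. Both mutants were compared with the same wild-type libraries.

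*Cnot6*, the less abundant catalytic subunit of its pair, was measured at 36.9, 37.9 and 39.4 CPM in wild type, at 32.4, 29.2, 27.6 and 27.5 CPM in ΔMT/ΔMT and at 23.5, 24.1 and 19.4 CPM in SOM/SOM. All SOM/SOM libraries lay below all ΔMT/ΔMT libraries, and these below all wild-type libraries. It changed by −0.39 on the log2 scale in ΔMT/ΔMT (standard error 0.099, adjusted p = 0.0240) and −0.76 in SOM/SOM (standard error 0.11, adjusted p = 4.73e-04), which left 59.2% of the wild-type level. The ΔMT/ΔMT call was lost when any 1 of 6 libraries was left out (wild-type replicate 1, 2 or 3, or ΔMT/ΔMT replicate 2, 3 or 4), with adjusted p-values up to 0.0850. Leaving out each of the 10 libraries in turn gave changes of −0.34 to −0.44. It was also lost without the filter on low counts (adjusted p = 0.0598) and with a replicate block (adjusted p = 0.0797). The SOM/SOM call held without each library in turn (−0.68 to −0.81).

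*Cnot6l*, the more abundant transcript of the pair, had 778, 839 and 821 CPM in wild type, 795, 699, 669 and 609.9 CPM in ΔMT/ΔMT and 587, 659.8 and 429 CPM in SOM/SOM. The SOM/SOM libraries were below all wild-type libraries, but ΔMT/ΔMT replicate 1 lay within the wild-type range. *Cnot6l* changed by −0.54 in SOM/SOM (standard error 0.14, adjusted p = 0.0168). It was not called in ΔMT/ΔMT (log2 fold change −0.23, standard error 0.13, adjusted p = 0.282). Without the shallow SOM/SOM replicate 3, the lowest, the SOM/SOM change was −0.38 (adjusted p = 0.0226), and without wild-type replicate 2 the adjusted p was 0.0509.

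*Ythdf2* moved the other way. It was measured at 45.4, 32.0 and 47.9 CPM in wild type, 62.8, 57.7, 57.5 and 56.3 CPM in ΔMT/ΔMT and 70.4, 71.7 and 80.1 CPM in SOM/SOM, so that these genotypes were ordered without overlap. It changed by 0.49 on the log2 scale in ΔMT/ΔMT (standard error 0.13, adjusted p = 0.0271) and 0.82 in SOM/SOM (standard error 0.14, adjusted p = 0.00127), 1.77-fold wild type. The ΔMT/ΔMT call was lost without wild-type replicate 2 (0.34, adjusted p = 0.0640), without ΔMT/ΔMT replicate 1 (adjusted p = 0.0682) and without ΔMT/ΔMT replicate 2 (adjusted p = 0.0579).

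*Zfp36l2* had 15.8, 12.7 and 11.9 CPM in wild type, 14.2, 14.8, 14.6 and 16.0 CPM in ΔMT/ΔMT and 13.1, 14.8 and 32.2 CPM in SOM/SOM. Of the SOM/SOM libraries, only replicate 3 lay outside the range of wild type and ΔMT/ΔMT. The SOM/SOM change of 0.50 (standard error 0.28, adjusted p = 0.204) became 0.047 without that library (adjusted p = 0.835).

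**Figure D2:**
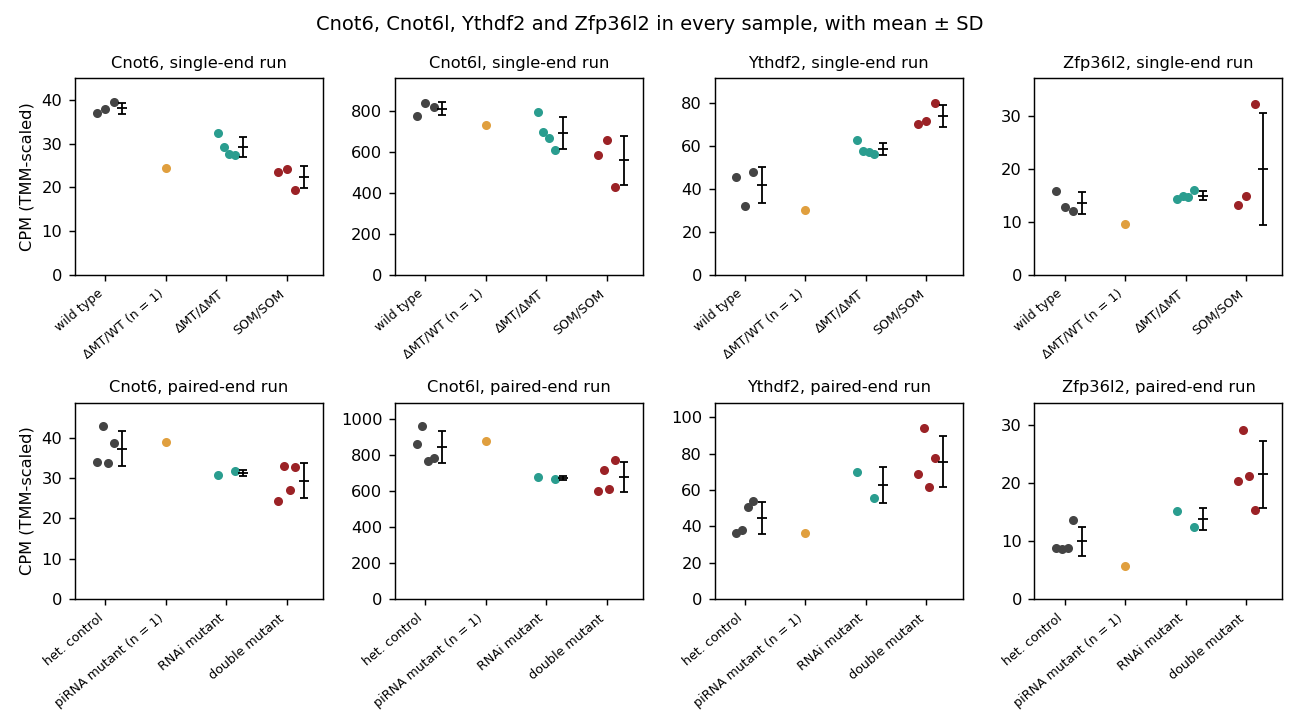
TMM-scaled CPM of *Cnot6*, *Cnot6l*, *Ythdf2* and *Zfp36l2* (columns) in the single-end run (top) and the paired-end run (bottom), on axes that start at 0; points are libraries and bars the mean ± SD of groups with 2 or more. In the single-end run *Cnot6* falls from wild type over ΔMT/ΔMT to SOM/SOM and *Ythdf2* rises, in both cases without overlap, and 1 SOM/SOM library has 32.2 CPM of *Zfp36l2*. The single ΔMT/WT library lies outside this order, with 24.5 CPM of *Cnot6*, below ΔMT/ΔMT, and 30.4 CPM of *Ythdf2*, below wild type.

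The remaining 6 genes were not called against wild type in either mutant. *Btg4*, needed for decay in the maturing egg, was at 796, 865 and 828 CPM in wild type, 727, 854, 904 and 737 CPM in ΔMT/ΔMT, and 789, 752 and 529 CPM in SOM/SOM, where replicate 3 was lowest. *Dcp1a*, the decapping activator, had 2639.7, 2950.2 and 2516 CPM in wild type, 2235, 2309, 2569.6 and 2378 CPM in ΔMT/ΔMT and 2617, 2610.4 and 2003 CPM in SOM/SOM. Both groups of mutants overlapped wild type for these 2 genes except that SOM/SOM *Btg4* stayed below the lowest wild-type library. *Dcp2*, the decapping enzyme, was at 319, 324 and 268 CPM, then 299, 299.7, 278 and 293 CPM, and 292, 249.6 and 222 CPM in the same order of genotypes. Its SOM/SOM change of −0.25 (standard error 0.11, adjusted p = 0.106) was called without SOM/SOM replicate 1 (−0.37, adjusted p = 0.0293).

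Among the CAF1-type subunits, *Cnot7* was measured at 362, 440.2 and 366 CPM in wild type, 365, 377, 397 and 344 CPM in ΔMT/ΔMT and 337, 349 and 296 CPM in SOM/SOM. All SOM/SOM libraries were below all wild-type libraries, with a change of −0.25 (standard error 0.10, adjusted p = 0.0897) that was not called. *Cnot8* had 56.2, 67.7 and 64.0 CPM, then 52.4, 58.3, 70.4 and 56.6 CPM, and 63.2, 62.2 and 41.2 CPM, with overlap between all genotypes. *Pan2*, the catalytic subunit of the other deadenylase, went from 219, 244 and 219.9 CPM in wild type to 208, 219.7, 239 and 210.2 CPM in ΔMT/ΔMT and 211, 231 and 239.0 CPM in SOM/SOM. Its log2 fold change in SOM/SOM, the smallest of the 10 genes there, was −0.0034 with a standard error of 0.086.

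Compared with each other, the 2 *Dicer* mutants differed in 0 of the 10 genes by edgeR, while 3 had an unadjusted p under 0.05 and DESeq2 called 1, *Cnot6*. Over all genes, 4.03% were called higher and 3.32% lower in SOM/SOM. *Cnot6* changed by −0.37 from ΔMT/ΔMT to SOM/SOM (standard error 0.10, adjusted p = 0.0541), *Cnot6l* by −0.31 (adjusted p = 0.196) and *Ythdf2* by 0.33 (adjusted p = 0.143). *Zfp36l2* changed by 0.36 (adjusted p = 0.451), and by −0.097 without SOM/SOM replicate 3. The median over the 10 genes was −0.13, against 0.0095 over all tested genes.

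In the paired-end run, double mutants had more *Zfp36l2* and *Ythdf2* than heterozygous controls. Of the 10 genes, 2 were called higher and 0 lower, where 12.3% of the 20989 tested genes were called higher and 8.83% lower, and 4 had an unadjusted p under 0.05. DESeq2 called the same number. The median log2 fold change of the 10 genes was −0.078, against −0.0012 over all genes.

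*Zfp36l2* was measured at 8.80, 8.66, 8.76 and 13.7 CPM in the controls aged 36, 38, 10 and 17 weeks and at 20.3, 29.2, 21.2 and 15.4 CPM in the double mutants aged 40, 35, 11 and 11 weeks. Every double mutant lay above every control, and the 35-week library was highest. It rose by 1.11 on the log2 scale (standard error 0.22, adjusted p = 0.00224), or 2.16-fold. In the RNAi mutants *Zfp36l2* had 15.1 and 12.5 CPM, which overlapped the controls (log2 fold change 0.47, standard error 0.26, adjusted p = 0.310).

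*Ythdf2* had 36.6, 38.0, 50.8 and 53.8 CPM in the controls, 69.1, 94.2, 61.5 and 77.9 CPM in the double mutants and 69.9 and 55.9 CPM in the RNAi mutants. Both mutant groups lay above all controls and overlapped each other. The change was 0.76 in double mutants (standard error 0.17, adjusted p = 0.00602), 1.69-fold the controls. In the RNAi mutants it was 0.49 (standard error 0.21) and not called (adjusted p = 0.164). In the libraries of 10 to 17 weeks alone, 2 against 2, both genes kept their direction and neither was called in double mutants, with 0.71 for *Zfp36l2* (adjusted p = 0.171) and 0.42 for *Ythdf2* (adjusted p = 0.258).

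*Cnot6* was at 34.0, 42.8, 33.7 and 38.6 CPM in the controls, 24.3, 33.0, 27.0 and 32.8 CPM in double mutants and 30.6 and 31.7 CPM in RNAi mutants. All 6 mutant libraries were below all 4 controls, by small margins. Neither difference was called, with −0.35 in double mutants (standard error 0.14, adjusted p = 0.108) and −0.26 in the 2 RNAi mutants (standard error 0.18, adjusted p = 0.432). *Cnot6l* had 864, 962, 769.9 and 783 CPM in the controls, 604, 716, 612 and 775 CPM in double mutants and 681 and 665 CPM in RNAi mutants, and only double mutant replicate 2 reached the control range. Its changes were −0.32 (standard error 0.12, adjusted p = 0.0695) and −0.33 (standard error 0.15, adjusted p = 0.188). In double mutants it was called without replicate 2 of the double mutants (−0.39, adjusted p = 0.0297) or without control replicate 2 (−0.35, adjusted p = 0.0442).

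**Figure D3:**
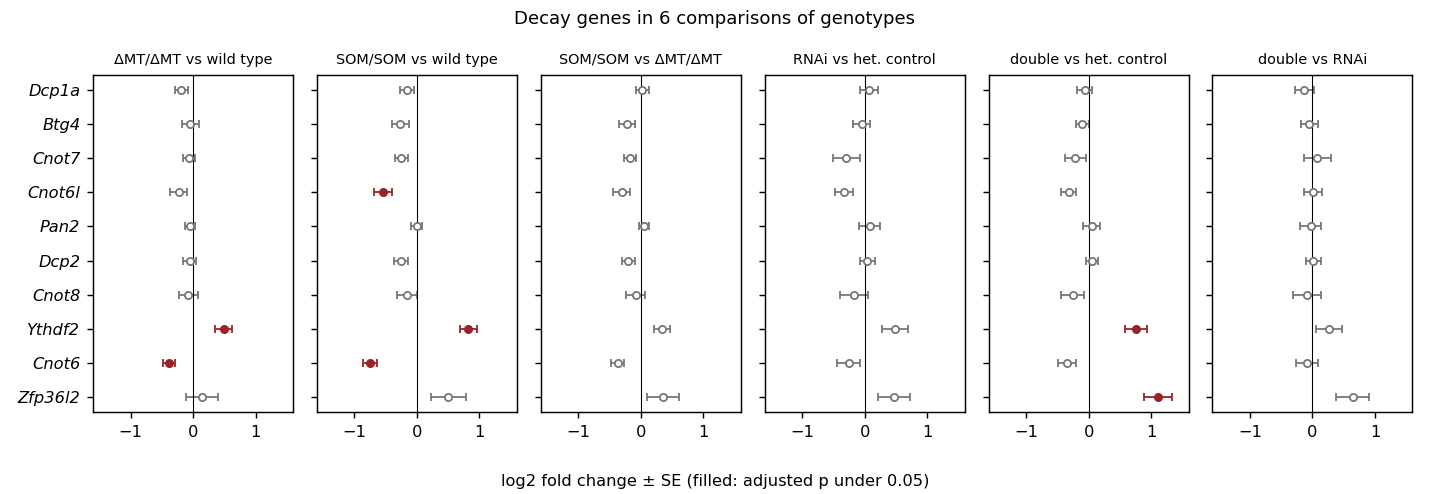
Log2 fold changes of the 10 genes with their standard errors in 6 comparisons, by edgeR; filled points have an adjusted p under 0.05. The calls are *Ythdf2* and *Cnot6* in ΔMT/ΔMT, these and *Cnot6l* in SOM/SOM, and *Ythdf2* and *Zfp36l2* (1.11) in double mutants, and the other 3 comparisons have no filled point.

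Against the controls, edgeR called 0 of the 10 genes in RNAi mutants, where 7.07% of all genes were called higher and 3.64% lower. DESeq2 called 0, and 2 had an unadjusted p under 0.05. With 2 libraries in this group, the standard errors of the 10 genes were 0.12 to 0.26. The median of the 10 genes was −0.0032, against −0.023 over all genes. Between double mutants and RNAi mutants, edgeR and DESeq2 called 0 of the 10 genes, with 1 at an unadjusted p under 0.05 (*Zfp36l2*, 0.64, standard error 0.27, adjusted p = 0.949), where 0.31% of all genes were called higher and 0.00476% lower. Every double mutant was above both RNAi mutants for *Zfp36l2*, the closest pair being 15.4 and 15.1 CPM. *Ythdf2* differed by 0.27 (standard error 0.21), *Cnot6* by −0.089 (standard error 0.18) and *Cnot6l* by 0.0074 (standard error 0.14). The median was −0.012, against 0.011 over all genes.

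The other 6 genes were not called in any paired-end comparison. *Btg4* had 679, 721, 708 and 709 CPM in the controls, 661 and 703 CPM in RNAi mutants and 565, 649, 645 and 774 CPM in double mutants. *Dcp1a* had 2682, 2711, 2013 and 2392 CPM in the controls, 2393 and 2752 CPM in RNAi mutants and 2259.7, 2192, 2253 and 2706 CPM in double mutants. *Dcp2* varied little, with 306, 313, 287 and 301 CPM in controls, 294 and 327 CPM in RNAi mutants and 328, 285, 320.4 and 318 CPM in double mutants. *Pan2* had 236, 235, 158 and 189 CPM in controls, 201 and 232 CPM in RNAi mutants, and 218, 209.8, 199 and 219.7 CPM in double mutants. Double mutants overlapped the controls in each of these 4 genes.

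*Cnot7* levels in the paired-end run moved with the rRNA content of the libraries, within controls and within double mutants too. In 6 libraries *Gm42418*, a gene that overlaps rRNA sequence, had over 1000 CPM of all counts (control replicates 1o and 3, both RNAi mutants and double mutant replicates 1o and 1), and in the other 5 it had less. *Cnot7* was at 550.5 and 503 CPM in the controls with more rRNA and 739.7 and 639.7 CPM in those with less. In double mutants these values were 379 and 464 CPM against 564 and 694 CPM, and the RNAi mutants, with more, had 506 and 487 CPM. Over all genotypes *Cnot7* lay between 379 and 550.5 CPM in the 6 libraries and between 564 and 739.7 CPM in the 5, without overlap. It was the only one of the 10 genes for which these sets did not overlap. The share of all tested genes that were likewise apart was not determined, and the sets were divided after the data were seen. Libraries of different sets also differed over all genes. Chi-square per gene, about 1 from counting error alone, was 25.8 and 29.8 between double mutants of the same set. Between sets it was 73.8 to 95.1. In controls it was 18.8 and 69.2 within sets and 47.3 to 98 between them.

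*Cnot8* lay between 42.7 and 64.1 CPM in the 6 libraries with more rRNA and between 57.5 and 89.9 CPM in the 5 with less. Against the controls, *Cnot7* changed by −0.29 in the 2 RNAi mutants (standard error 0.21, adjusted p = 0.466) and by −0.21 in double mutants (standard error 0.17, adjusted p = 0.444). With a term for the rRNA sets, added after the values were seen, the *Cnot7* change in RNAi mutants was −0.038 (adjusted p = 0.911). With the same term, *Cnot6* and *Cnot6l* were called in double mutants beside *Zfp36l2* and *Ythdf2* (−0.36, adjusted p = 0.0496, and −0.33, adjusted p = 0.0239). *Zfp36l2* rose by 0.92 among the libraries with more rRNA (adjusted p = 0.0271) and by 1.37 among those with less (adjusted p = 0.0335), 2 double mutants against 2 controls each time. *Ythdf2* rose by 0.56 (adjusted p = 0.0905, not called) and 0.96 (adjusted p = 0.0314).

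**Figure D4:**
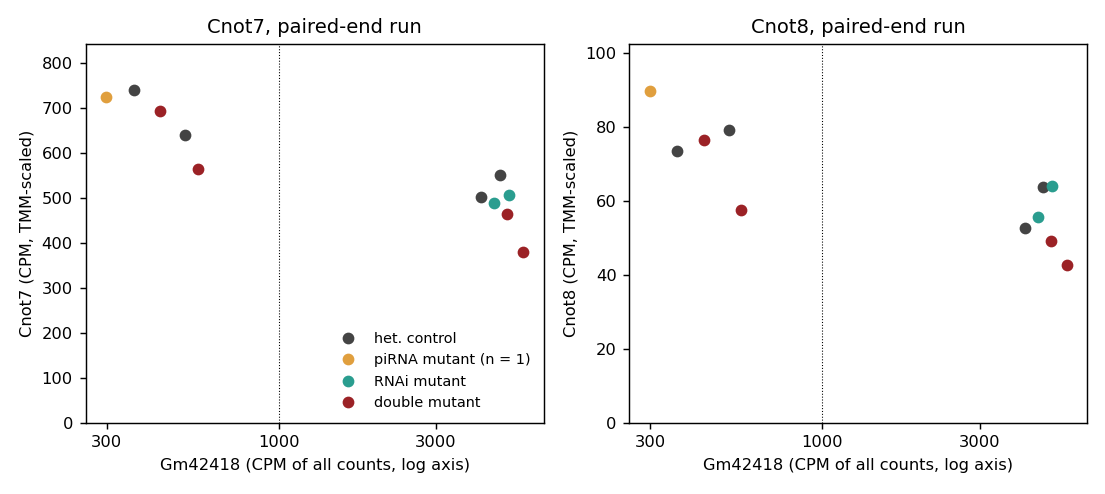
*Cnot7* (left) and *Cnot8* (right) in the 11 paired-end libraries, as TMM-scaled CPM, against *Gm42418* as CPM of all counts on a log axis; colours give the genotype and the dotted line is at 1000 CPM. The 6 libraries to the right of the line have less *Cnot7* (379 to 550.5 CPM) than the 5 to the left (564 to 739.7 CPM), within controls and within double mutants alike.

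The ratio of paralogs within a library does not depend on how libraries are scaled. The log2 ratio of *Cnot6l* to *Cnot6* counts was 4.42 ± 0.046 in wild type, 4.57 ± 0.065 in ΔMT/ΔMT and 4.63 ± 0.16 in SOM/SOM. The ΔMT/ΔMT libraries were all above the wild-type libraries, by 0.15 on average. An exact permutation test (two-sided) gave p = 0.0571, the smallest that 4 against 3 allows, and 0.686 after adjustment over the 12 ratio tests. SOM/SOM overlapped wild type (difference 0.21, exact permutation p = 0.200). In the paired-end run the log2 ratio was 4.50 ± 0.13 in controls, 4.43 ± 0.059 in RNAi mutants and 4.53 ± 0.083 in double mutants, with overlap throughout.

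For *Cnot7* over *Cnot8*, the log2 ratio was 2.63 ± 0.10 in wild type, 2.65 ± 0.13 in ΔMT/ΔMT, 2.58 ± 0.23 in SOM/SOM, 3.18 ± 0.14 in controls, 3.06 ± 0.10 in RNAi mutants and 3.22 ± 0.063 in double mutants. The double mutants lay above the RNAi mutants without overlap, by 0.16, with p = 0.133 in the two-sided exact permutation test, which can give no smaller p with 4 against 2. Adjusted over the 12 exact tests the p-values were 0.686 to 0.914, but with these group sizes no adjusted p could fall below 0.114, so the tests cannot show whether the ratios differed.

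**Figure D5:**
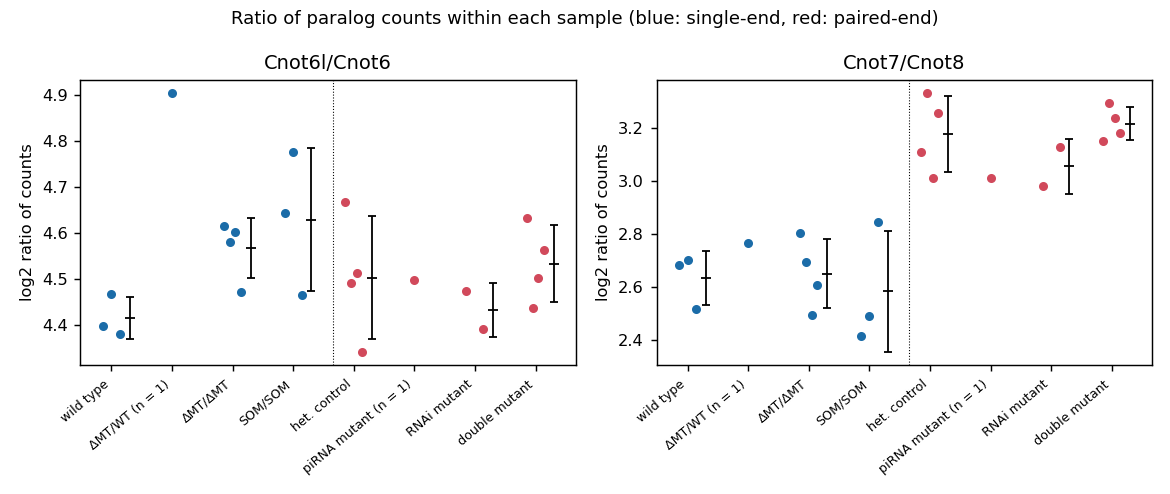
Log2 ratio of counts of *Cnot6l* to *Cnot6* (left) and of *Cnot7* to *Cnot8* (right) in each library, with mean ± SD for groups of 2 or more; blue points are the single-end and red points the paired-end run, and the axes do not start at 0. *Cnot6l*/*Cnot6* overlaps between the runs, with the single ΔMT/WT library highest at 4.91, whereas *Cnot7*/*Cnot8* is higher in every paired-end library.

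The effect of SOM/SOM was compared between the runs, as SOM/SOM against wild type and RNAi mutants against heterozygous controls in 1 fit of 24824 genes. By edgeR and by DESeq2, 0 of the 10 genes differed between the runs, and 1, *Cnot6*, had an unadjusted p under 0.05 (difference −0.53, standard error 0.20, adjusted p = 0.446). Over all genes, 0.00403% were called in each direction. The median of the 10 genes was −0.18, against −0.0098 over all. Age was tested in the paired-end run with genotype in the fit, libraries of 35 to 40 weeks against those of 10 to 17. By edgeR and DESeq2 0 of the 10 genes were called, with 0 at an unadjusted p under 0.05, where 0% of all genes were called higher and 0.0143% lower. The 10 genes differed by −0.13 to 0.24 between ages, with standard errors of 0.10 to 0.22 and a median of 0.010, against −0.0054 over all genes. The largest difference was in *Pan2* (0.24, standard error 0.12, adjusted p = 0.757).

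The single libraries were placed by their values, with no test. The *Dicer* ΔMT/WT library had 24.5 CPM of *Cnot6*, within the gap between the ΔMT/ΔMT and the SOM/SOM libraries and below all wild-type libraries. Its 734 CPM of *Cnot6l* were below wild type and within the ΔMT/ΔMT range, and its 30.4 CPM of *Ythdf2* and 9.57 CPM of *Zfp36l2* were below all other libraries of the run. It thus had the low *Cnot6* of the homozygous mutants without their high *Ythdf2*. Its other values were 846 CPM of *Btg4*, 404 of *Cnot7*, 59.4 of *Cnot8*, 2670.0 of *Dcp1a*, 290.4 of *Dcp2* and 236 of *Pan2*, all within the wild-type range.

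The piRNA mutant had 38.9 CPM of *Cnot6* and 879.95 CPM of *Cnot6l*, both within the range of the heterozygous controls. Its *Zfp36l2*, 5.68 CPM, and *Ythdf2*, 36.5 CPM, were below all controls, the latter narrowly. Its *Btg4*, 858 CPM, and *Cnot8*, 89.9 CPM, were above all other paired-end libraries. *Cnot7* (725 CPM), *Dcp1a* (2698 CPM) and *Pan2* (230.3 CPM) were within the range of the controls, and *Dcp2* (286.7 CPM) was just under it.

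Of 76 other genes of mRNA decay, 75 were tested. In ΔMT/ΔMT 7 were called higher and 9 lower (9.33% and 12%), in SOM/SOM 10 and 11 (13.3% and 14.7%), in RNAi mutants 3 and 3 (4% each) and in double mutants 5 and 6 (6.67% and 8%). Over all genes, in the same order, 8.06% and 7.3%, 14.5% and 14.2%, 7.07% and 3.64%, and 12.3% and 8.83% were called. From ΔMT/ΔMT to SOM/SOM 2 of the 75 were higher and 0 lower (2.67% and 0%), against 4.03% and 3.32% of all genes. The medians of the 75 genes were −0.071 in ΔMT/ΔMT, 0.055 in SOM/SOM, −0.029 in RNAi mutants and −0.038 in double mutants. Between double and RNAi mutants, between ages and between runs 0 of the 75 were called by edgeR and by DESeq2, with 0, 2 and 5 at an unadjusted p under 0.05.

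Of the 17 genes of the exonuclease list, 5 were called higher in ΔMT/ΔMT (29.4%, against 8.06% of all genes), 6 in SOM/SOM (35.3% against 14.5%), 3 in RNAi mutants (17.6% against 7.07%) and 3 in double mutants (17.6% against 12.3%). In these comparisons 0 were called lower, where 7.3%, 14.2%, 3.64% and 8.83% of all genes were. The list was not tested as a set. Its median log2 fold change was 0.21, 0.31, 0.063 and 0.15 in that order. The largest rises were in 2 subunits of the exosome, the complex that degrades RNA from its 3′ end. *Exosc2* was at 4.28, 3.50 and 4.04 CPM in wild type, 7.59, 8.07, 7.94 and 9.54 CPM in ΔMT/ΔMT and 8.73, 8.48 and 6.09 CPM in SOM/SOM, without overlap with wild type. It changed by 1.07 (adjusted p = 8.56e-04) and 1.01 (adjusted p = 8.87e-04). In the second run *Exosc2* had 4.20, 4.03, 5.49 and 6.79 CPM in controls, 13.3 and 9.82 CPM in RNAi mutants and 8.73, 8.98, 10.4 and 9.34 CPM in double mutants, with changes of 1.17 (adjusted p = 0.00493) and 0.87 (adjusted p = 0.00647).

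*Exosc9*, which the study lists among potential siRNA targets, changed by 1.05 in ΔMT/ΔMT (adjusted p = 6.81e-04), 1.11 in SOM/SOM (adjusted p = 3.12e-04), 0.997 in RNAi mutants (adjusted p = 0.00317) and 0.94 in double mutants (adjusted p = 7.46e-04). It rose from 11.3 to 13.6 CPM in wild type to 21.2 to 31.0 CPM in both *Dicer* mutants. None of the 10 genes is on that siRNA target list.

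Of the 15 other decapping genes, 2 were called higher and 1 lower in ΔMT/ΔMT, and 2 and 3 in SOM/SOM. These are 13.3% and 6.67% in ΔMT/ΔMT, against 8.06% and 7.3% of all genes. In SOM/SOM they are 13.3% and 20%, against 14.5% and 14.2% of all genes. *Nudt16*, a decapping enzyme, rose from 1.50, 2.24 and 1.05 CPM in wild type to 3.52, 4.03, 2.80 and 3.45 CPM in ΔMT/ΔMT (1.11, adjusted p = 0.0274). Of the 5 poly(A)-binding proteins, *Pabpc1*, which coats poly(A) tails in the cytoplasm of somatic cells and recruits deadenylases, was at 56.3, 35.7, 33.0 and 50.2 CPM in ΔMT/ΔMT and 83.0, 92.0 and 92.2 CPM in SOM/SOM. It was higher in every SOM/SOM library, by 1.02 (adjusted p = 0.00941), and against the 51.8, 35.3 and 49.4 CPM of wild type it rose by 0.97 in SOM/SOM (adjusted p = 0.00529). In the paired-end run 0 of the 5 poly(A)-binding proteins, *Pabpc1* included, were called against the controls in RNAi mutants or in double mutants. Over all genes, 7.07% were called higher and 3.64% lower in RNAi mutants, and 12.3% and 8.83% in double mutants. In double mutants 3 of the 5 had an unadjusted p under 0.05 by edgeR.

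Of the 7 other CCR4-NOT subunits, 0 were called higher. Called lower were 2 in ΔMT/ΔMT (28.6%, against 7.3% of all genes), 1 in SOM/SOM (14.3% against 14.2%) and 1 in double mutants (14.3% against 8.83%). The gene called in all 3, named here after its values were seen, was *Cnot1*, the scaffold of the complex. It was at 575, 583 and 591 CPM in wild type, 440.3, 409.6, 409 and 414 CPM in ΔMT/ΔMT and 386, 439 and 359 CPM in SOM/SOM, and its change was −0.48 (adjusted p = 0.00198), −0.56 (adjusted p = 5.37e-04) and, in double mutants, −0.56 (adjusted p = 0.00722). In RNAi mutants *Cnot1* changed by −0.54 and was not called (adjusted p = 0.0503). Of 7 PAN and other deadenylases, 3 were lower in ΔMT/ΔMT (42.9%), 2 in SOM/SOM (28.6%) and 0 in RNAi mutants and in double mutants. Over all genes, 7.3%, 14.2%, 3.64% and 8.83% were called lower in that order. Of the 17 tested sequence-specific decay adaptors, 3, 4, 3 and 4 were lower in ΔMT/ΔMT, SOM/SOM, RNAi mutants and double mutants, and 0 were higher. These are 17.6%, 23.5%, 17.6% and 23.5% of the list, against 7.3%, 14.2%, 3.64% and 8.83% of all genes called lower. Of 5 BTG and TOB adaptors, 1, *Tob1*, was called higher in SOM/SOM (0.82, adjusted p = 6.54e-04) and in double mutants (0.71, adjusted p = 0.0224), and of 2 terminal uridylyltransferases, *Tut7* was lower in SOM/SOM (−0.52, adjusted p = 0.0157). *Tob1* and *Tut7* were likewise chosen after their values were seen. Over all genes, 14.5% were called higher and 14.2% lower in SOM/SOM, and 12.3% higher in double mutants.

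*Zfp36l2* varied most over the 8 genotypes of both runs among the 10 genes, with an SD of 0.586 between the log2 ratios of group means to the control of the run, followed by *Ythdf2* (0.480). Among 20089 genes tested in both runs, the 3 profiles nearest to that of *Zfp36l2* were those of *Gm26759*, *Cdkl3* and *Olfr701*, with root mean square differences of 0.154, 0.161 and 0.171 over the 8 genotypes. In double mutants these log2 ratios were 1.10 for *Zfp36l2* and 1.02, 1.07 and 1.13 for the 3 genes, and in the piRNA mutant −0.78 and −0.44, −0.77 and −0.62. The likeness is a description over group means, some of which rest on 1 library.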

How the data were processed

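The authors deposited estimated counts per GENCODE M15 gene, not normalized, for 22 libraries of total RNA from pooled GV oocytes. According to the methods they mapped reads to mm10 with STAR 2.5.3a, kept reads with many matches, and counted with featureCounts without strand, giving each match a fraction of the read. Values with fractions were therefore common: 21 of 22 counts of *Cnot6* were whole, but 1 of 22 for *Dcp2* and for *Ythdf2*. CPM are shares of a library, so fewer transcripts of a gene and more of all others cannot be told apart. The deposited table of repeat elements was not used here.

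Counts were rounded to whole numbers. Genes passing filterByExpr (a minimum count of 10, scaled to depth, over the size of the smallest replicated group, and 15 in total) were fitted in edgeR 4.0.16 (R 4.3.3) with TMM scaling and the quasi-likelihood test, each run apart: wild type, ΔMT/ΔMT and SOM/SOM in the first, all 11 libraries in the second. The filter left the singly sequenced piRNA mutant out of the group sizes. Fold changes are fitted, CPM and RPKM use TMM-scaled library sizes, and ΔMT/WT was not fitted. Ratios of paralogs were tested with exact permutation tests (scipy 1.17.1) over 6 comparisons. The tests were first tried on simulated data. The floor was 3 counts per library. Replicate pairs differed by 12.1 to 98 in chi-square per gene, where counting error alone gives about 1, so no pair was counted as 1 library deposited again.

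The genes, the lists of other decay genes and the alternatives were chosen with earlier results of these data known. All 10 genes are given in every sample. Of the other decay genes, those called with a log2 fold change of at least 1 in size were named, at most 5 per comparison, and any further gene is marked as chosen after its values were seen. The alternatives were DESeq2 1.42.0, library size without TMM, no filter, only the groups compared, the rRNA genes removed, a replicate block, an age term, libraries of 10 to 17 weeks, each library left out, and 1 count added to ratios. The rRNA sets, divided at 1000 CPM of *Gm42418*, were added after the data were seen. Sequences come from GENCODE M21 transcripts on GRCm38.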

Additional observations from a re-analysis of the deposited data

Results flagged for a closer look

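In groups of 4 libraries, a value is listed here if its gap to the nearest other value, divided by the range of the group, was above Dixon's critical value. Chance gives this in about 1 in 20 groups, and 2 of the 36 groups of values had it.

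*Zfp36l2* in control replicate 3, aged 17 weeks, was at 13.7 CPM, while the other 3 controls lay between 8.66 and 8.80 CPM (gap over range 0.972). Without this library the rise in double mutants was 1.30 (adjusted p = 0.00106) in place of 1.11, and that in RNAi mutants 0.66 (adjusted p = 0.127) in place of 0.47.

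*Dcp1a* in double mutant replicate 2, aged 11 weeks, was at 2706 CPM, with the other 3 double mutants between 2192 and 2260 CPM (gap over range 0.867). Without it the difference of double mutants from controls was −0.13 (adjusted p = 0.504) in place of −0.058.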

How the results depend on the processing

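The number of the 10 genes called moved by more than 1.5 times in these cases. For ΔMT/ΔMT against wild type, 2 became 1 without the filter on low counts and 1 with a replicate block, in both of which *Cnot6* was lost, and ranged from 0 (without wild-type replicate 2 or ΔMT/ΔMT replicate 2) to 2 with 1 library left out. For SOM/SOM against ΔMT/ΔMT, DESeq2 called 1 in place of 0. For double mutants against controls, 2 became 0 in libraries of 10 to 17 weeks and 4 with the rRNA term. The cause was not tested, except that fewer libraries enter some of these fits. SOM/SOM against wild type gave 3 calls with every setting that kept all libraries and 2 to 4 with 1 left out, and the replicate block changed no other count of the 10 genes.

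*Cnot6l* between double and RNAi mutants, 0.0074, changed sign to −0.032 with the replicate block, −0.031 with the age term, −0.091 with the rRNA term and −0.12 in libraries with more rRNA, and lay between −0.054 and 0.059 with 1 library left out. *Zfp36l2* from ΔMT/ΔMT to SOM/SOM lay between −0.097 and 0.58. The *Cnot6l*/*Cnot6* difference in double mutants, 0.031, became −0.0015 in libraries with less rRNA. With 1 library left out it lay between −0.023 and 0.086, and between −0.012 and 0.14 from ΔMT/ΔMT to SOM/SOM. For *Cnot7*/*Cnot8* these ranges were −0.043 to 0.067 (ΔMT/ΔMT), −0.18 to 0.034 (SOM/SOM), −0.20 to 0.018 (between the 2) and −0.016 to 0.091 (double mutants). Of the 34 changes not named singly, 21 changed sign under some setting, at sizes up to 0.211, and 0 were called under any.

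Over all genes, ΔMT/ΔMT calls moved from 3556 to between 2203 (without wild-type replicate 1) and 4858 with 1 library left out, RNAi mutant calls from 2247 to 1228 (replicate block), 1353 (10 to 17 weeks) and 1077 to 2390 with 1 library left out (lowest without RNAi mutant replicate 2; 1104 without replicate 1), and double mutant calls from 4446 to 1932 (10 to 17 weeks). With 1 library left out, calls between SOM/SOM and ΔMT/ΔMT were 899 (without ΔMT/ΔMT replicate 2) to 1806, in place of 1702, and those between double and RNAi mutants 24 (without RNAi mutant replicate 2) to 77, in place of 66. In libraries with less rRNA double mutants had 1488. DESeq2 called 2621 in place of 1702 between SOM/SOM and ΔMT/ΔMT, 169 in place of 66 between double and RNAi mutants, 55 in place of 3 between ages and 112 in place of 2 between runs, and without the filter the last 3 were 147, 186 and 5. With only control and double mutant libraries, 0 genes were called between ages. Calls among the other decay genes in double mutants went from 11 to 19 by DESeq2, 4 at 10 to 17 weeks and 2 with less rRNA, those in RNAi mutants from 6 to 3 with the replicate block and 2 at 10 to 17 weeks, and those between SOM/SOM and ΔMT/ΔMT from 2 to 4 by DESeq2. Library sizes alone moved the median difference between runs by 0.11. Deviations of same-numbered libraries correlated by −0.069 to 0.18. For controls and double mutants r was 0.135 (1o), 0.0276 (2o) and 0.177 (2), the first and last of these being the highest of the paired-end run, so the numbers were not taken as pairs, since not all exceeded 0.1. Depth limits *Dicer* SOM/SOM replicate 3 most.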

Other observations

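*Rc3h1* and *Nanos1*, both encoding RNA-binding proteins of mRNA repression, were called lower than the controls of the run in ΔMT/ΔMT, SOM/SOM, RNAi mutants and double mutants. *Rc3h1* was at 117 to 126 CPM in wild type and 89.9 to 99.8 CPM in both *Dicer* mutants, and fell from 106 to 170 CPM in the heterozygous controls to 79.9 and 81.6 CPM in RNAi mutants. *Nanos1* changed by −0.51 in ΔMT/ΔMT (adjusted p = 0.0269), −0.49 in SOM/SOM (adjusted p = 0.0283), −0.84 in RNAi mutants (adjusted p = 0.0324) and −0.78 in double mutants (adjusted p = 0.00723). *Dis3l*, an exonuclease of the cytoplasmic exosome, was called higher in the same 4 comparisons, by 0.24, 0.40, 0.48 and 0.37. All 3 genes were chosen after their values were seen. Each pair of comparisons shares its controls.

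*Cnot7* outnumbered *Cnot8* 5.33-fold to 7.18-fold by counts in the 11 single-end libraries and 7.90-fold to 10.1-fold in the 11 paired-end libraries, without overlap. The runs differ in read type, sequencing instrument and facility, alleles and possibly age, which cannot be told apart.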
